A study of Mus musculus with 6 samples.

Results

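Stra8, Rec8, Meioc and Ythdc2, 4 genes that act at the entry of germ cells into meiosis, were followed across single cells of the developing mouse ovary and of stem-cell-derived gonad tissue. They were picked by symbol from the 31053 genes listed in the count matrices, and each symbol matched 1 gene. Droplet single-cell RNA sequencing (10x Chromium 3′ v2, in which each captured transcript carries a unique molecular identifier, UMI) was done on 6 libraries. Induced D6 held gonad somatic cells made from 129svj x C57BL/6J mouse embryonic stem cells, grown as aggregates in 3 culture steps of 2 days each. BMP4 was present in every step. CHIR and EGF joined it in the first, retinoic acid, PD0325901, SHH and EGF in the middle one, and FGF9 in the last. The other 5 libraries held gonads of XX ICR embryos, 1 for each of the stages E10.5, E11.5, E12.5, E13.5 and E14.5, where E stands for embryonic day. There was 1 library per group, and the number of embryos or aggregates behind each is not given in the sources used here. No test between groups was therefore possible, and every interval below is a 95% interval that covers counting error only.

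Oogonia divide by mitosis, then replicate their DNA a last time and enter meiotic prophase in the fetal ovary, in response to retinoic acid and BMP signals from the surrounding tissue. STRA8 is the transcriptional gatekeeper of this step and works with its partner MEIOSIN. REC8 is the kleisin subunit of the meiosis-specific cohesin that holds sister chromatids together, in the place that RAD21 takes in mitosis, and its gene can be induced without STRA8. MEIOC binds YTHDC2, an RNA helicase, and the complex lowers mitotic transcripts such as that of cyclin A2. In the fetal ovary these genes are known for their expression in germ cells, while the somatic supporting cells of the ovary become pregranulosa cells.

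Germ cells were taken as the clusters of each in vivo library that carried the germ cell markers, with the 4 genes left out of the clustering. This gave 18 of 5946 kept cells at E10.5, 311 of 2661 at E11.5, 581 of 3165 at E12.5, 1396 of 4399 at E13.5 and 1040 of 4160 at E14.5, or 3346 germ-cell-like cells in all. Clusters were named from the germ cell markers, so the levels of these markers describe the label and do not check it independently. All 14 germ cell markers were higher in these cells than in the other cells at E10.5 to E13.5, and 12 of 14 were at E14.5, where Dnd1 and Nanos3 were lower. The summed CPM (the UMIs of a gene divided by all UMIs of the class of cells, on the usual CPM scale) of 46 somatic markers was 203 to 906 in germ-cell-like cells and 10368 to 26306 in the other cells. Induced D6 had 7067 kept cells and no germ-cell-like cluster, and all of them were used.

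Median depth was 6184 UMIs per kept cell in Induced D6 and 6414 to 11843 in vivo. A cell barcode was shared by 17 to 72 cells between most pairs of libraries, but by 114 between E14.5 and E13.5. Of these 114, 42 lay in small clusters of shallow cells led by Cd74, Tbata and Prss16, and 9 and 10 were germ-cell-like at E14.5 and E13.5. Results that moved without shared barcodes are given with and without them. A further E14.5 cluster of 120 cells carried 7 germ cell markers but had a median depth of 2272 UMIs and no such marker among its leading genes. It was left unnamed and kept out of both classes, and adding it changed no ratio beyond its interval.

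The stretch around the start of transcription is shown for the 3 genes that have an entry in the RefSeq promoter table (GRCm38.p6), where Ythdc2 has none. Each run goes from 250 bases before the start given in that table to 50 bases after it. It reads 5′ to 3′ on the plus strand, which is the coding strand of all 3 genes. Stra8 is at chr6:34920698-34920997, Rec8 at chr14:55617916-55618215 and Meioc at chr11:102665335-102665634. Capitals mark AGGTCA (the core hexamer that nuclear receptors bind), CCAAT (the CCAAT box) and GCGGGA (an E2F core), on either strand.
Stra8: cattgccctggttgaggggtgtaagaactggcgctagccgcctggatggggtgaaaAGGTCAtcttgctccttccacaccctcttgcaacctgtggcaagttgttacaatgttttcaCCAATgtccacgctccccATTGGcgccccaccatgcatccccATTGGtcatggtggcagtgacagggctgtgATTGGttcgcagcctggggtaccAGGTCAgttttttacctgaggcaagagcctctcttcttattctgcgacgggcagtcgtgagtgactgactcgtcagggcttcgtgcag
Rec8: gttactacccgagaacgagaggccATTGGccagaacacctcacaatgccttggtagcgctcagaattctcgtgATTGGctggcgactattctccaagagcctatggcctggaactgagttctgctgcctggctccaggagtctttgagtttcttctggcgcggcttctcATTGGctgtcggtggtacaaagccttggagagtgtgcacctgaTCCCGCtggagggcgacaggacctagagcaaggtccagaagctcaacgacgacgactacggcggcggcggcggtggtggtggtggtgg
Meioc: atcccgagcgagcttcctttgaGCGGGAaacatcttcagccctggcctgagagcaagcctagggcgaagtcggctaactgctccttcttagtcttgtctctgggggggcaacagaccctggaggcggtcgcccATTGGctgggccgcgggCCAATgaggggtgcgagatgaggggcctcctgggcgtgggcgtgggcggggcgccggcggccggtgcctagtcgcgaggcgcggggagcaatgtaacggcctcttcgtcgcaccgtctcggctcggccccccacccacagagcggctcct

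The Stra8 window held AGGTCA 2 times, with first bases 194 and 38 bases before the start, and CCAAT 4 times. At least 1 AGGTCA on either strand was found in 16.3% of the 32851 promoters of the table, and 2 or more in 1.81%. CCAAT occurred 3 times in the Rec8 window and 2 times in the Meioc window, against at least 1 in 37.4%, at least 2 in 11.7%, at least 3 in 3.37% and at least 4 in 1.06% of all promoters. GCGGGA occurred 1 time each in the Rec8 and Meioc windows, and at least 1 time in 19.98% of all promoters. Neither CNCCTCAG, a motif reported for STRA8 and present in 7.94% of promoters, nor CACGTG, the E-box (7.15%), occurred in the 3 windows. These are matches of letters on both strands, none of which overlap here, and they describe the sequence and not binding. In the GENCODE vM21 annotation (GRCm38) the genes span chr6:34920163-34939344 (Stra8), chr14:55618037-55625395 (Rec8), chr11:102663716-102682237 (Meioc) and chr18:44827746-44889724 (Ythdc2), all on the plus strand. None overlaps another gene, though the coding gene Ipo4 lies 5 bases from Rec8 on the other strand. The Stra8 and Meioc starts in this annotation lie upstream of the windows shown, so the distances above hold for the RefSeq start only.

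Stra8, the gatekeeper, appeared in germ cells between E11.5 and E12.5 and was high at E13.5 and E14.5. No Stra8 UMI was counted in the 18 germ-cell-like cells at E10.5, where 3 counts would be 13.8 CPM. Its level was 1.67 CPM at E11.5 (0.836–2.996, 11 UMIs), 83.5 CPM at E12.5 (78.0–89.3), 533 CPM at E13.5 (523–543) and 434 CPM at E14.5 (421–446). The 4 intervals do not overlap, and the highest level was that of E13.5. In the other cells of the same libraries Stra8 was at 0.141 CPM (6 UMIs), 0 CPM (0 UMIs), 0.0354 CPM (1 UMI), 6.73 CPM and 6.51 CPM over the 5 stages.

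The step at E12.5 was the largest of the 4 genes. Stra8 had 83.5 CPM at E12.5 against 1.67 CPM at E11.5, a ratio of 49.9 (27.7–100.3). The E11.5 value rests on 5 cells, and 6 of its 11 UMIs came from 1 cell whose barcode was also that of a germ-cell-like cell at E12.5. Without shared barcodes the E11.5 level was 0.637 CPM and the ratio 134 (52.0–492). Stra8 was the only one of the 4 genes at or above 50 CPM in this comparison. It was 1 of 19 genes at least 2-fold higher, which is 0.677% of the 2807 genes at that level, while 0.891% were at least 2-fold lower and 1.57% changed that much either way. Counted from the median of all genes (log2 ratio -0.09), 29 genes were higher and 18 lower, against 19 and 25 counted from 0, and Stra8 was higher either way. At E13.5 Stra8 was 6.38 times its E12.5 level (5.95–6.85), and at E14.5 it was 0.814 times its E13.5 level (0.786–0.842). The setting of a mean over cells, in which every cell weighs the same, gave 5.54 for the E13.5 ratio.

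The rise took in most of the cells. Shares of cells with at least 1 UMI were compared after each cell was thinned to 3000 UMIs, which left out 12, 16, 42 and 39 shallower germ-cell-like cells over the last 4 stages. At that depth 0.334% of germ-cell-like cells held Stra8 at E11.5 (1 cell, 0.00847%–1.849%), 19.5% held it at E12.5 (16.3%–23.0%), 70.3% did so at E13.5 (67.8%–72.7%) and 53.1% at E14.5 (50.0002%–56.3%). Without thinning the shares were 1.61%, 42.3%, 93.3% and 74.3%. The other cells, with median depths of 11117, 9216, 7919 and 6672 UMIs, gave thinned shares of 0%, 0.0392%, 1.504% and 1.70%. For 0 of 2322 cells the upper limit is 0.159%. The germ-cell-like median depths were 21703, 17168, 13832 and 10246 UMIs. Single cells differed widely within a stage. At E12.5, 57.7% of germ-cell-like cells had no Stra8 UMI and 8 cells had 15 or more, up to 22, while at E13.5 only 6.73% had none and 193 cells had 15 or more, up to 47. At E14.5 the cells without a Stra8 UMI were 25.7% and those with 15 or more were 71.

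**Figure D1:**
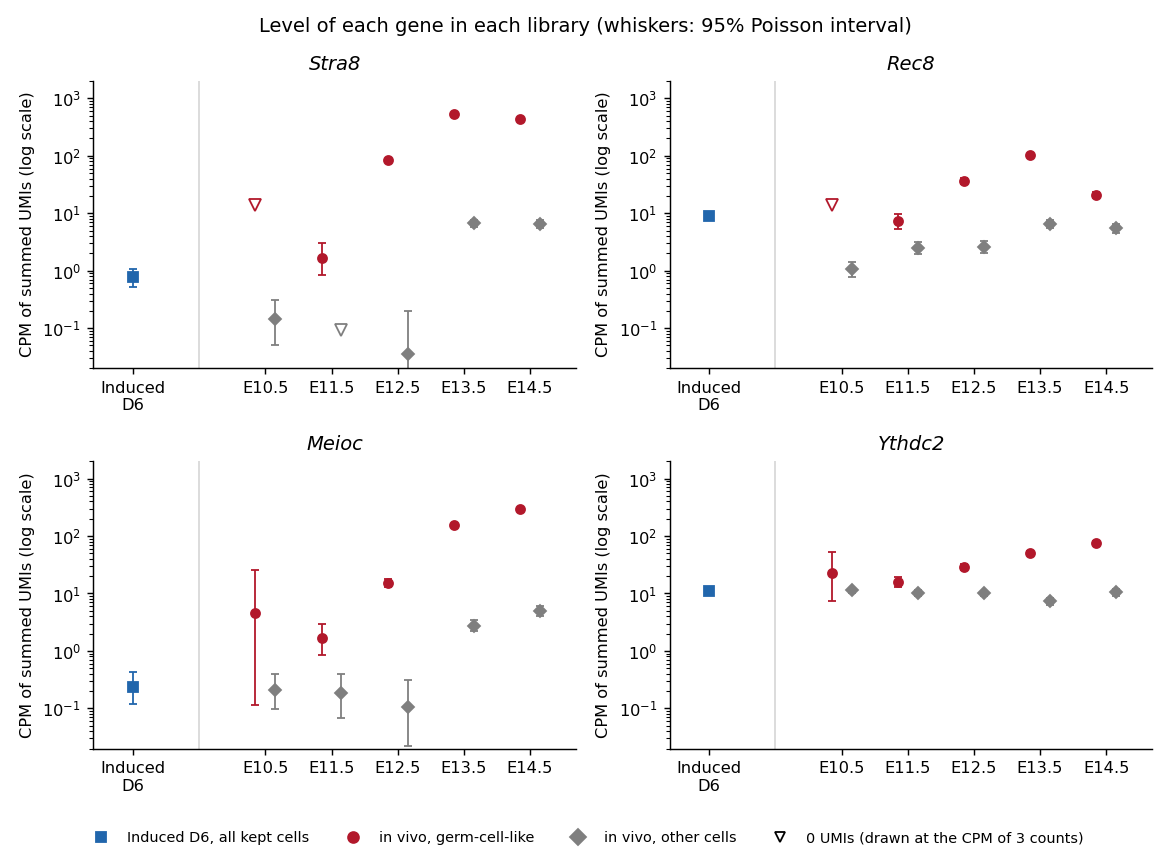
Level of each gene (CPM of summed UMIs, log axis) in all Induced D6 cells, left of the line, and in germ-cell-like and other cells of each in vivo library, with 95% Poisson whiskers and open triangles for classes with 0 UMIs. Stra8 and Meioc sit near or below 2 CPM in germ-cell-like cells at E11.5 and above 150 CPM at E13.5, while Ythdc2 stays between 7 and 12 CPM in the other cells throughout.

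Rec8, the meiotic kleisin, was already above its level in the other cells at E11.5 and was the one gene that dropped sharply at E14.5. In germ-cell-like cells it had 0 UMIs at E10.5, 7.31 CPM at E11.5 (5.39–9.69), 36.4 CPM at E12.5 (32.8–40.3), 104 CPM at E13.5 (99.8–109) and 20.9 CPM at E14.5 (18.2–23.8). The other cells had 1.06, 2.49, 2.59, 6.48 and 5.47 CPM over the 5 stages. Among them the supporting-lineage-like cells had 5.41 CPM at E11.5 (4.25–6.79), an interval that overlaps that of the germ-cell-like cells. At E11.5, 47 germ-cell-like cells held a Rec8 UMI and no cell had more than 2, so the level did not rest on a few cells. The ratio was 4.98 (3.68–6.87) for E12.5 against E11.5 and 2.86 (2.56–3.21) for E13.5 against E12.5. At E14.5 Rec8 was 4.99-fold lower than at E13.5 (4.35–5.76). Rec8 was found in 1.67% of thinned germ-cell-like cells at E11.5, 10.1% of them at E12.5 (7.73%–12.9%), 26.4% of them at E13.5 (24.0%–28.8%) and 5.19% at E14.5 (3.90%–6.76%). The last 3 of these intervals do not overlap.

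Meioc, the binding partner of YTHDC2, went on increasing after Stra8 had reached its highest level. Its level was 4.59 CPM at E10.5 (1 UMI), 1.67 CPM at E11.5 (11 UMIs in 8 cells, 0.836–2.996), 15.4 CPM at E12.5 (13.05–18.0), 154.5 CPM at E13.5 (149–160.0) and 291 CPM at E14.5 (280.5–301). The other cells had 0.212, 0.182, 0.106, 2.77 and 4.97 CPM. The ratio of consecutive stages was 9.17 (4.99–18.7) for E12.5, 10.1 (8.57–11.9) for E13.5 and 1.88 (1.79–1.98) for E14.5. A mean over cells gave 1.76 for the last one. Meioc was found in 0.669%, 3.89%, 35.0% and 57.6% of thinned germ-cell-like cells over the last 4 stages, so at E14.5 it was in a share of cells above that of E13.5, with intervals of 54.5% to 60.7% and 32.5% to 37.6%.

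Ythdc2, the helicase, was detected at every stage in germ cells and in the other cells, and its ratios were the smallest of the 4 genes at E12.5 and E13.5. Germ-cell-like cells had 22.9 CPM at E10.5 (5 UMIs), 15.8 CPM at E11.5 (12.9–19.2), 28.6 CPM at E12.5 (25.4–32.0), 51.4 CPM at E13.5 (48.3–54.6) and 75.1 CPM at E14.5 (70.0–80.5). The other cells stayed at 11.3, 10.1, 10.0, 7.29 and 10.4 CPM. Each consecutive ratio from E12.5 was below 2, at 1.80 (1.44–2.28), 1.80 (1.58–2.06) and 1.46 (1.33–1.60). The thinned share of germ-cell-like cells with Ythdc2 was 5.35%, 11.3%, 14.3% and 18.7% over the last 4 stages.

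Between E13.5 and E12.5 all 4 genes reached 50 CPM, and 3 of them (Stra8, Rec8 and Meioc) were at least 2-fold higher at E13.5, against 9.04% of the 3109 genes at that level. Between E14.5 and E13.5 only Rec8 passed 2-fold, in the lower direction, as did 11.3% of 3403 genes (12.6% passed in the higher direction and 23.9% in either). The order of stages thus differed among the genes. Stra8 and Rec8 were highest at E13.5, and Meioc and Ythdc2 were highest at E14.5, with intervals that do not overlap the neighbouring stage in any of these cases.

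**Figure D2:**
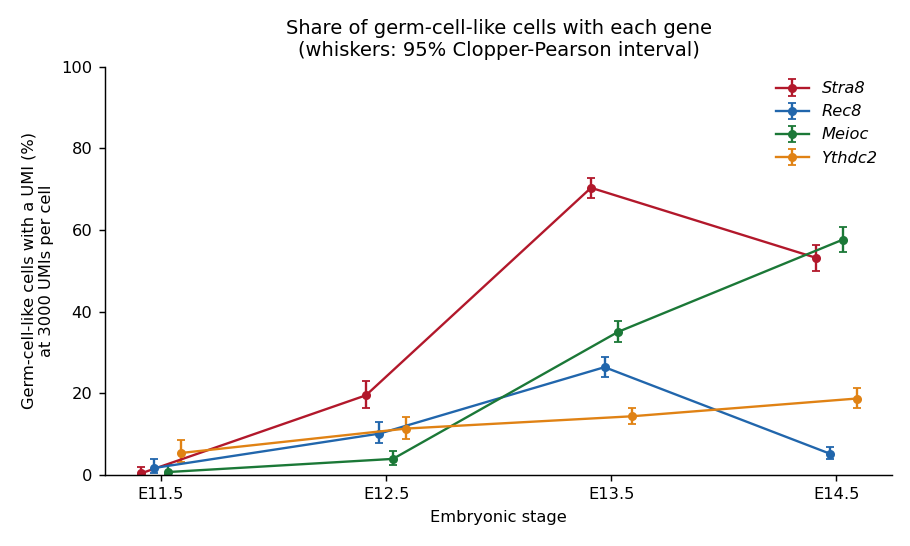
Share of germ-cell-like cells with at least 1 UMI of each gene (percent, at 3000 UMIs per cell) at E11.5 to E14.5, with 95% Clopper-Pearson whiskers. Stra8 peaks at 70.3% and Rec8 at 26.4% at E13.5, while Meioc reaches 57.6% at E14.5.

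Set against the other cells of the same library, Stra8 and Meioc had the largest ratios of germ cells to other cells. Stra8 was 18.4-fold higher in germ-cell-like cells at E11.5, from 11 UMIs against a floor of 3 counts in the other cells, with a lower limit of 12.6. Without shared barcodes it was 6.72-fold higher at that floor, with a lower limit of 3.33. The ratio was 2358 at E12.5 (422–93243, 1 UMI in the other cells), 79.2 for E13.5 (68.7–91.8) and 66.6 for E14.5 (56.7–78.6). Meioc ratios were 9.18 (3.11–30.2) at E11.5, 144 (48.5–708, 3 UMIs in the other cells) at E12.5, 55.8 (44.6–70.7) for E13.5 and 58.5 (48.7–70.8) for E14.5. Rec8 ratios were 2.93, 14.1, 16.1 and 3.82 over the last 4 stages, and Ythdc2 ratios were 1.56, 2.85, 7.05 and 7.19. Under the stricter cell filter (at least 1000 genes, at most 5% mitochondrial UMIs) the Rec8 ratio at E14.5 was 8.68. None of the 4 genes was at or above 50 CPM at E11.5, where 19.3% of 3527 genes were at least 2-fold higher in germ-cell-like cells, and Stra8 was the only one at E12.5, where 20.7% of 3317 genes were. At E13.5 all 4 genes were at least 2-fold higher in germ-cell-like cells, as were 32.3% of 3497 genes, and at E14.5 this held for the 3 genes at or above 50 CPM, against 38.6% of 3773 genes.

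In droplet data, RNA free in the suspension gives UMIs in cells that do not express a gene. The germ cell genes Dazl and Ddx4 and the prophase gene Sycp3 were measured in the same way for comparison. The part of free RNA in the levels of the 4 genes was not tested. Other cells held 1.80% of the germ-cell-like level of Dazl and 2.79% of that of Ddx4 at E13.5, and 2.03% and 2.52% at E14.5. Sycp3 was at 2.23% at E13.5 and 2.24% at E14.5. For Stra8 the figures were 1.26% and 1.502%, below the values of Dazl and Ddx4. For Meioc they were 1.79% and 1.71%. Meioc and Dazl were nearly equal at E13.5 (1.792% and 1.795%, from 79 Meioc UMIs in the other cells). No interval was computed for these percentages, so small differences between them are not read as an order. Rec8 stood above Dazl and Ddx4, at 6.22% at E13.5 and 26.2% at E14.5, and so did Ythdc2, at 14.2% and 13.9%. At E12.5 the other cells held 0.180% of the Dazl level, 0.155% of the Ddx4 level and 1.07% of the Sycp3 level, so these 3 genes differed. The figures were then 0.0424% for Stra8, 7.11% for Rec8, 0.692% for Meioc and 35.1% for Ythdc2.

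Outside germ cells Rec8 was higher in supporting-lineage-like than in stroma-like cells in each library that held both classes. This comparison was chosen after the values were seen. In Induced D6, Rec8 had 17.9 CPM in the 1291 supporting-lineage-like cells (15.2–20.9) and 2.05 CPM in the 2272 stroma-like cells (1.34–3.01), a ratio of 8.71 (5.72–13.7). The supporting-lineage-like and stroma-like levels were 5.41 and 0.261 CPM at E11.5, 5.14 and 0.210 CPM at E12.5, 8.41 and 2.80 CPM at E13.5, and 10.9 and 0.761 CPM at E14.5. Only 2 UMIs at E11.5 and 1 UMI at E12.5 stand behind the stroma-like values, which puts the ratios at 20.8 (5.55–175) and 24.5 (4.23–981). They were 3.01 (1.77–5.51) at E13.5 and 14.3 (6.25–40.3) at E14.5. Rec8 was not limited to the supporting lineage. Coelomic-epithelium-like cells had 6.98 CPM in Induced D6 (5.81–8.33), 0.671 CPM at E11.5 (4 UMIs), 1.03 CPM at E12.5 (8 UMIs) and 4.19 CPM at E14.5 (2.44–6.71). In Induced D6 these cells held 124 of the 417 Rec8 UMIs, against 156 in supporting-lineage-like cells, and the smaller of the 2 supporting-lineage-like clusters was at 6.95 CPM (4.46–10.3), within the range of the coelomic-epithelium-like clusters. Dazl, in contrast, had 19.4 and 14.9 CPM in the supporting-lineage-like and stroma-like cells at E13.5, a ratio of 1.298 (1.02–1.68), and 23.7 and 16.0 CPM at E14.5, a ratio of 1.49 (1.17–1.90). Ythdc2 did not share the pattern of Rec8: its ratio was 0.603 in Induced D6 and 0.428, 0.614, 0.926 and 1.01 over the last 4 stages.

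**Figure D3:**
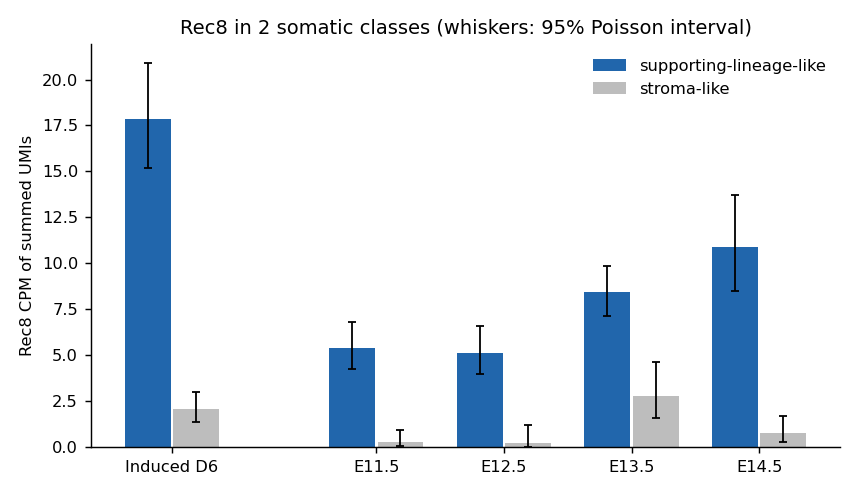
Rec8 level (CPM of summed UMIs) in supporting-lineage-like and stroma-like cells of Induced D6 and of the in vivo libraries that held both classes, with 95% Poisson whiskers. The supporting-lineage-like level is the higher one in all 5 libraries, and it is 17.9 CPM in Induced D6 and 5.14 to 10.9 CPM in vivo.

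Induced D6, which had met retinoic acid and BMP4 in culture, was compared with the non-germ cells in vivo. Stra8 had 35 UMIs in 8 of its 7067 cells, or 0.761 CPM (0.530–1.06). This was 0.113 times the level of the other cells at E13.5 (0.0765–0.163) and 0.117 times that at E14.5 (0.0785–0.169). Those other cells also held 18.1 and 20.8 CPM of Dazl. The Induced D6 level of Stra8 was 5.39 times that at E10.5 (2.24–15.7). Against E11.5, where the other cells had 0 UMIs, it was 8.35-fold higher at a floor of 3 counts, with a lower limit of 6.44. The E12.5 ratio was 21.5 (3.61–872) against 1 UMI. Almost all of this Stra8 was in a few cells. Of the 35 UMIs, 33 came from 6 cells of a cluster of 44 cells (173 CPM, 119–243), with 20, 8, 2, 1, 1 and 1 UMIs per cell. The cluster was led by Dppa5a, Rhox6, Rhox5, Rhox9 and Pou5f1, had 6 of 12 pluripotent stem cell markers and 3 of 14 germ cell markers, and had a median depth of 1953 UMIs. It is called pluripotent-stem-cell-like here. Under 5 of 6 other cell filters and clusterings 33 of the 35 UMIs were again in 1 cluster, and 31 of 32 were under the stricter cell filter. With seed 1, at resolution 0.5 and under the stricter filter, the cluster that held them had 243 to 284 cells and no name.

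The 3 deepest of those 6 cells, at 23127 to 28788 UMIs, held 180 to 220 Dppa5a and 11 to 22 Pou5f1 UMIs each. None of the 8 cells had a Rec8, Meioc or Ddx4 UMI, and 1 had a single Dazl UMI. Of 5 Induced D6 cells that met the per-cell germ cell marker rule, 3 held Stra8, with 29 UMIs in all. Dppa5a and Pou5f1 are expressed in both stem cells and early germ cells, so these genes do not separate the labels.

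Rec8 in Induced D6 was at 9.06 CPM (8.21–9.98, 417 UMIs in 362 cells), above the non-germ cells of every in vivo library. The ratio was 8.56 (6.28–11.9) to E10.5, 3.64 (2.86–4.67) to E11.5, 3.51 (2.73–4.56) to E12.5, 1.40 (1.17–1.67) to E13.5 and 1.66 (1.36–2.03) to E14.5. With mitochondrial, ribosomal protein and haemoglobin genes left out of the total, the E13.5 ratio was 1.11 (0.931–1.33), and under the stricter cell filter the E14.5 ratio was 3.49 (2.41–5.21). By cluster, Rec8 was highest in a supporting-lineage-like cluster of 726 cells with Wnt6 and Fst among its leading genes (25.0 CPM, 20.9–29.6) and in an unnamed cluster of 854 cells led by Pax8 and Notum (20.3 CPM, 16.6–24.6). These intervals overlap. The lowest levels among clusters of over 100 cells were 0.884 and 1.40 CPM.

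Meioc was close to absent from Induced D6, with 11 UMIs in 10 cells (0.239 CPM, 0.119–0.428). This was 0.0864 times the non-germ cell level at E13.5 and 0.0481 times that at E14.5. Against E10.5, E11.5 and E12.5 the ratios were 1.13 (0.425–3.08), 1.31 (0.445–4.32) and 2.25 (0.594–12.6), so no difference was detectable at this depth. A stroma-like cluster of 484 cells led by Pclaf and Atad2, genes of replicating cells, held 9 of the 11 UMIs. Ythdc2 was at 10.998 CPM (10.1–11.999), 0.9754 to 1.51 times the level of in vivo non-germ cells. The interval excluded 1 only against E13.5 (1.51, 1.28–1.78). With mitochondrial, ribosomal protein and haemoglobin genes left out of the total, the E14.5 ratio was 0.849 (0.728–0.992), the opposite direction to the 1.05 (0.904–1.23) of the full total.

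Within the E12.5, E13.5 and E14.5 libraries, germ-cell-like cells were ranked by the share of their UMIs in 30 prophase genes, none of them among the 4 genes, and split into 4 bins of equal size. The bins are ranges of this score and not cell types. At E12.5 Stra8 had 19.0, 44.9, 67.9 and 218 CPM from the lowest to the highest bin, and at E13.5 it had 230.1, 445, 684 and 863 CPM. At E14.5 the direction was the opposite, with 756, 528, 251 and 198 CPM. The sum of prophase genes was 5785 CPM in the highest bin at E13.5 and 4540 CPM in the lowest bin at E14.5. The Stra8 levels of these bins, 863 and 756 CPM, were the 2 highest among all E13.5 and E14.5 bins.

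Within the E13.5 bins Rec8 turned down where Stra8 still rose. It had 19.4, 26.8, 32.3 and 71.2 CPM in the E12.5 bins and 60.8, 106, 153 and 102 CPM in the E13.5 bins. In the E14.5 bins it had 72.6, 8.71, 1.09 (3 UMIs) and 0.769 CPM (2 UMIs). The third E13.5 bin, with a prophase sum of 2648 CPM, was the highest. Meioc kept its level instead: it had 56.3, 112, 196 and 287 CPM at E13.5, and 271, 308, 296 and 288 CPM at E14.5. Ythdc2 had 41.5, 44.6, 47.3 and 77.6 CPM at E13.5, and 59.9, 84.8, 77.4 and 78.4 CPM at E14.5. Ccna2, which encodes cyclin A2, had 135, 124, 73.5 and 37.2 CPM in the E13.5 bins and 44.6, 18.2, 14.54 and 16.9 CPM in the E14.5 bins. Ranking after thinning and splitting into 3 bins kept these directions for Stra8 and Rec8. The order of the Ythdc2 bins changed with thinning, to 45.2, 49.3, 41.3 and 69.0 CPM at E13.5 and 66.4, 62.7, 60 and 86.7 CPM at E14.5.

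**Figure D4:**
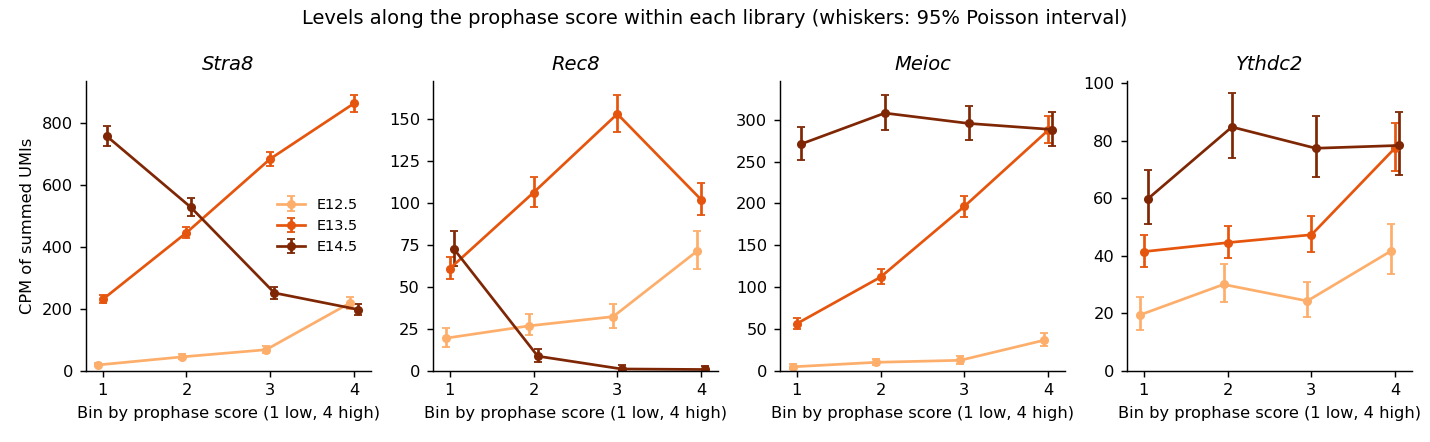
Level of each gene (CPM of summed UMIs) in 4 equal bins of the germ-cell-like cells of E12.5, E13.5 and E14.5, from low (1) to high (4) share of prophase gene UMIs, with 95% Poisson whiskers. Stra8 climbs to 863 CPM at E13.5 and declines to 198 CPM at E14.5, Rec8 peaks in the third E13.5 bin at 153 CPM, and Meioc stays between 271 and 308 CPM at E14.5.

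The germ-cell-like clusters also differed within a stage. They were not made from the prophase score, but prophase genes were not left out of the clustering, so the clusters do not check the bins independently. At E12.5 a cluster of 17 cells, led by Stra8, Tex101 and Smc1b, had 621 CPM Stra8 (532–721), 143 CPM Rec8, 92.8 CPM Meioc and 49.97 CPM Ythdc2. The 2 large E12.5 clusters, of 303 and 261 cells, had 51.6 and 86.5 CPM Stra8 and 11.02 and 15.5 CPM Meioc. At E14.5 Stra8 was 804 CPM in a cluster of 226 cells led by Rhox5 and Stra8, 543 CPM in one of 454 cells led by M1ap and Xlr4b, and 80.6 CPM in one of 360 cells led by Sycp1. In the same order Rec8 was at 86.6, 6.33 and 1.06 CPM (4 UMIs), and Meioc at 264, 318 and 272 CPM. Among the E14.5 clusters Stra8 and Rec8 thus differed widely and Meioc little, although a cluster led by Stra8 is high in it by construction.

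A small E13.5 cluster stood apart. Its 31 cells were led by Pou5f1, Utf1 and Dppa3 and had a median depth of 6412 UMIs, against 11837 to 15013 in the other E13.5 germ-cell-like clusters. Stra8 was at 576 CPM (480–687) and Rec8 at 92.2 CPM (56.3–142), while Meioc had 1 UMI (4.61 CPM, 0.117–25.7) and Ythdc2 had 2 UMIs (9.22 CPM, 1.12–33.3). The other E13.5 germ-cell-like clusters had 101 to 318 CPM Meioc and 43.5 to 92.5 CPM Ythdc2. Whether these cells are intact was not tested.

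Detection of the genes in the same cells was described at 3000 UMIs per cell. At E14.5, 44 of the 52 cells with Rec8 also held Stra8 (84.6%, 71.9%–93.1%), against 51.4% (48.2%–54.6%) of the cells without Rec8. At E13.5 the shares with Stra8 were 77.0% (72.3%–81.3%) among cells with Rec8 and 67.9% (64.9%–70.8%) among those without. Meioc was held by 39.4% of cells with Stra8 and 24.6% of cells without it at E13.5, and by 59.0% and 56.1% at E14.5, where the intervals overlap. At E12.5 Ythdc2 was held by 23.6% of cells with Stra8 (16.1%–32.7%) and 8.35% of cells without it (5.98%–11.3%), whereas the intervals overlapped at E13.5 (15.02% and 12.7%) and E14.5 (20.7% and 16.4%). All 4 genes were found in 0 cells at E12.5, 17 of 1354 cells at E13.5 and 7 of 1001 cells at E14.5.

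Genes with the most similar pattern were sought across the 10 germ-cell-like clusters of at least 20 cells, by Pearson correlation of log2(CPM + 10) over 4372 genes. The clusters share libraries, so these values are descriptions. Ndufa3, a subunit of mitochondrial complex I, was nearest to Stra8 (r = 0.988), followed by Tmem41a, Timm17b, Dazl and Serf2. Nearest to Rec8 were Snapin (0.971), Id4, Cd63, Gchfr and Id2, where Id4 and Id2 encode inhibitors of bHLH transcription factors. Dennd5a (0.998), Celf2, Zfp518a and Hnrnph1 were among the 5 nearest to Meioc, and Dmxl1 (0.992), Epb41, Map7d2, Clcn5 and Magi3 were nearest to Ythdc2. Without the 31-cell cluster 1 of 5 remained for Stra8 (Ndufa3), 2 of 5 for Rec8 (Snapin and Id4), 2 of 5 for Meioc (Dennd5a and Celf2) and 1 of 5 for Ythdc2 (Epb41). Among the 4 genes the correlation was highest between Meioc and Ythdc2 (0.9504, and 0.962 without that cluster) and lowest between Rec8 and Ythdc2 (-0.11, and 0.085).

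Partners of the 4 genes in meiotic entry were followed from fixed lists. A list gene counted as higher or lower when its level moved at least 2-fold between consecutive stages, among genes at or above 50 CPM at either stage. Meiosin, the partner of STRA8 (listed as Gm4969), did not reach 50 CPM. It had 1, 5, 134 and 194 UMIs over the last 4 stages, or 0.152, 0.489, 6.62 and 18.2 CPM. Of 5 meiotic entry partners that did, 3 were at least 2-fold higher at E13.5 than at E12.5: the homeobox gene Msx1 (3.08-fold), Tcfl5 (3.07-fold) and the BMP receptor gene Bmpr1a (2.42-fold). Over all genes 9.04% were, and of the partners 3 of 9 were with a minimum of 20 CPM and none of 5 passed 4-fold. At E14.5 Msx1 was 2.63-fold lower than at E13.5. Rbm46, whose product joins MEIOC and YTHDC2, had 58.9, 83.2, 73.2 and 83.6 CPM over the last 4 stages, and Dazl, an RNA-binding protein that licenses germ cells to respond, had 472, 749, 1007 and 1023 CPM. The retinoic acid list had 1 gene at this level, Crabp1, a retinoic acid binding protein, with 33.7 CPM at E14.5 and 67.5 CPM at E13.5 (2.00-fold lower).

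The cohesin list held genes that moved in both directions. Smc1b, the meiotic SMC1 subunit, was 3.99-fold higher at E12.5 than at E11.5, 2.36-fold higher at E13.5 than at E12.5 and 2.75-fold higher at E14.5 than at E13.5. Its level at E14.5 was 1990 CPM. Mau2, a cohesin loader subunit, had 109.8 CPM at E14.5 against 43.4 CPM at E13.5, and Nipbl, its loader partner, had 316 CPM against 148 CPM. Stag3, the meiotic STAG subunit, had 129 CPM at E13.5 against 47.6 CPM at E12.5, and 323 CPM at E14.5. Rad21, the mitotic kleisin, had 25.3 CPM at E14.5 against 91.1 CPM at E13.5 (3.60-fold lower), and Smc1a, the mitotic SMC1 subunit, had 66.4 CPM at E13.5 against 152 CPM at E12.5 (2.29-fold lower). Rec8 and Rad21 were both lower at E14.5 than at E13.5, while Smc1b, Stag3, Mau2 and Nipbl were higher. In all, 4 of 14 cohesin genes were at least 2-fold higher at E14.5 and 1 was lower, against 12.6% and 11.3% of all genes, and none of the 14 passed 4-fold. The list had a median log2 ratio of -0.02 against 0.09 over all genes.

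The prophase list had genes past 2-fold in each comparison of stages. At E12.5, 1 of 6 was at least 2-fold higher than at E11.5 (Sycp3, of the synaptonemal complex axis, 2.32-fold), against 0.677% of all genes, and with a minimum of 20 CPM 4 of 11 were. At E13.5, 7 of 10 were higher than at E12.5 (median log2 ratio 1.82, against 0.03 over all genes, of which 9.04% were higher), among them Tex12 (10.3-fold) and Sycp1 (8.33-fold), both of the central region. At E14.5, 20 of 23 were higher than at E13.5 (median 1.87, with 12.6% of all genes higher), among them Prdm9 (10.8-fold), which marks recombination sites, Sycp1 (7.69-fold) and Ankrd31 (7.50-fold). None of the prophase genes was at least 2-fold lower in these comparisons.

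Transcripts of the mitotic cycle, among which are known targets of the MEIOC and YTHDC2 complex, were mostly lower at E14.5. Of 12 cyclin and kinase genes, 7 were at least 2-fold lower than at E13.5 and 1 was higher, against 11.3% and 12.6% of all genes, with a median log2 ratio of -1.56. Ccnb1 had 9.92 CPM at E14.5 against 104 CPM at E13.5 (10.53-fold lower) and Ccna2 had 23.6 against 96.5 CPM (4.09-fold lower). The cyclin E gene Ccne2 went the other way, with 297 CPM at E14.5 against 68.0 CPM at E13.5 (4.36-fold higher), and was already 5.90-fold higher at E13.5 than at E12.5, when Ccnd1 was 2.77-fold higher and Aurka 2.23-fold lower. Germline pluripotency genes were at least 2-fold lower in 6 of 8 at E13.5, against 5.98% of all genes, and in 6 of 6 at E14.5, against 11.3%, where Dppa3 was 11.02-fold, Sox2 10.498-fold and Pou5f1 9.76-fold lower. At E13.5 Zfp42 was 3.86-fold, Tcl1 3.43-fold and Dppa5a 2.73-fold lower than at E12.5.

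Among the repressors of meiotic genes that reached the level for counting, none passed 2-fold before E14.5. None of 12 did at E12.5 and none of 11 at E13.5. At E13.5 the MAX partner Mga was 1.43-fold and the Polycomb ligase gene Rnf2 1.75-fold higher than at E12.5, and Tet1 was 1.73-fold lower. Uhrf1 did not reach that level, with 43.8 CPM at E13.5 against 17.8 CPM at E12.5. With a minimum of 20 CPM, 1 of 15 repressors was at least 2-fold higher at E13.5. At E14.5, 3 of 11 were at least 2-fold lower than at E13.5, against 11.3% of all genes: Tet1 (7.89-fold), the H3K9 methyltransferase gene Ehmt2 (2.64-fold) and the deacetylase gene Hdac2 (2.04-fold). Tet1 stands in this list although its product, a DNA demethylase, is also known to activate meiotic genes. Of 10 m6A and RNA decay factors, 1 was at least 2-fold higher at E13.5, the m6A demethylase gene Alkbh5 (170.3 CPM at E13.5 against 72.2 CPM at E12.5), a share near the 9.04% of all genes, and none passed at E14.5, where the largest ratio was that of Zc3h13, of the m6A writer complex, with 178 CPM against 107 CPM at E13.5. Ythdc1, the nuclear m6A reader, had 303 CPM against 194 CPM.

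**Figure D5:**
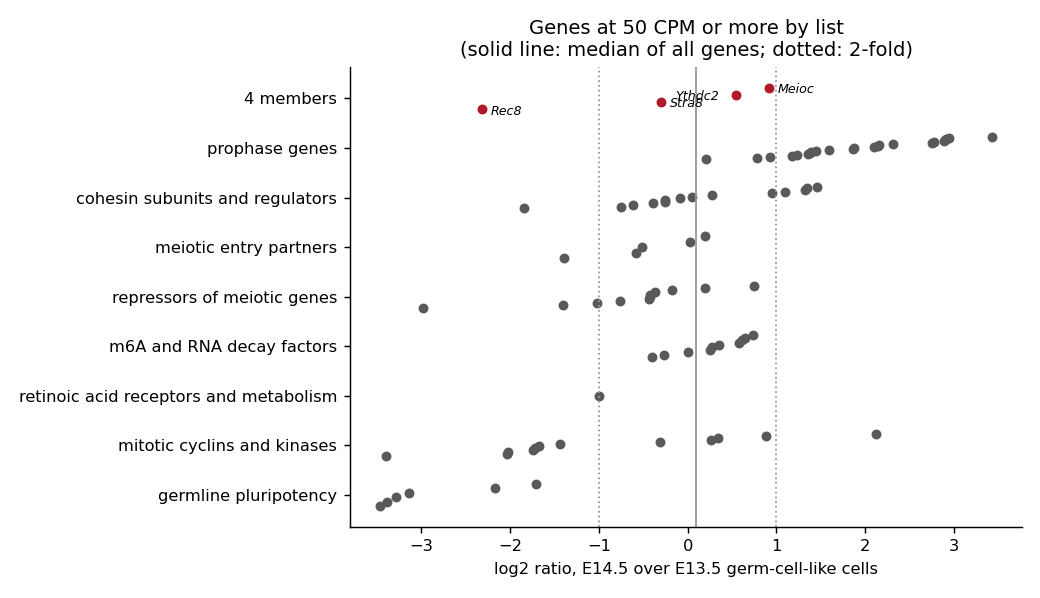
Log2 ratio of E14.5 over E13.5 germ-cell-like cells for each gene at or above 50 CPM at either stage, 1 point per gene, by list, with the median of all genes as a solid line and 2-fold as dotted lines. Rec8 is at -2.32, apart from Stra8 (-0.30), Ythdc2 (0.55) and Meioc (0.91), 20 of 23 prophase genes lie beyond 2-fold on the higher side, and 6 of 6 germline pluripotency genes lie beyond it on the lower side.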

How the data were processed

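The authors deposited UMI counts, not normalized, as 1 matrix per library. Per the submitters' processing notes reads were handled with Cell Ranger 3.0.2 and the mm10 build. How cells were called is not given in the sources used here. A cell needed 500 or more genes and no more than 10% of UMIs from mitochondrial genes. Scrublet scores (scanpy 1.11.5) ranked likely doublets, and the highest were removed up to 0.8% per 1000 cells, 59 to 452 cells per library, because the automatic threshold marked 0.0160% of E10.5 cells; pairs of like cells escape it. Clustering was done library by library (2000 variable genes without the 4 genes, 30 principal components, 15 neighbours, Leiden resolution 1, seed 0). Clusters were named from 11 marker sets when at least 3 markers and 33.3% of a set stood out; a germ cell cluster could also be led by pluripotency markers, a detail set after the data were seen. Names are "-like".

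UMIs were summed per class and given as CPM with exact Poisson intervals, ratios with exact conditional binomial intervals and shares with Clopper-Pearson intervals, all at 95%. A class at 0 was set to 3 counts in total for ratios, while limits came from the observed counts. Library totals ran from 37606947 to 52146419 UMIs. The 4 genes, the lists and the marker sets were chosen with earlier results of these data known. Named list genes are the 3 with the largest change per list and comparison; genes of similar pattern are the 5 highest correlations, of which 1 is not reported here; Meiosin, Rbm46, Dazl, Stag3 and the genes leading clusters were otherwise named after their values were seen. The calling step was tested on simulated counts. No replicate existed, so no p-value was computed.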

Additional observations from a re-analysis of the deposited data

How the results depend on the processing

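The 48 ratios of the 4 genes were recomputed under 11 other settings, which gave 526 values. Of these, 512 moved by less than the counting interval, 14 moved by more, and no called direction turned. With the mean over cells, the Stra8 ratio of E13.5 to E12.5 was 5.54, the Meioc ratio of E14.5 to E13.5 was 1.76, and the Rec8 ratio of Induced D6 to E10.5 non-germ cells was 5.80. With germ cells picked per cell by markers, the ratio of germ cells to other cells was 66.4 (E13.5) and 53.6 (E14.5) for Stra8 and 43.5 (E14.5) for Meioc. The stricter cell filter gave 8.68 for Rec8 in germ cells against other cells at E14.5 and 3.49 for Rec8 in Induced D6 against E14.5 non-germ cells. A total without mitochondrial, ribosomal protein and haemoglobin genes gave, for Induced D6 against non-germ cells, 1.11 (E13.5) and 1.34 (E14.5) for Rec8 and 1.20 (E13.5) and 0.849 (E14.5) for Ythdc2. Without shared barcodes, an alternative chosen after seeing the data, the Stra8 ratio was 134 for E12.5 against E11.5. In germ cells against other cells at E11.5 the ratio was then 6.72 at a floor of 3 counts (lower limit 3.33). The cause of these moves was not tested, except that leaving out shared barcodes removes the cell with 6 of the 11 Stra8 UMIs at E11.5. Adding the unnamed E14.5 cluster, also chosen after seeing the data, moved no ratio beyond its interval. Counted from the median of all genes, 263 genes were higher and 194 lower at E13.5 against 281 and 186 otherwise, and 367 higher and 428 lower at E14.5 against 430 and 385. Among all genes at E14.5 against E13.5, 67 were higher and 68 lower at 4-fold, and 767 and 908 with a minimum of 20 CPM. At 4-fold, 3 of 12 mitotic genes were lower, and 16 of 21 prophase genes were higher at E13.5 with the 20 CPM minimum. At 4-fold, 11 of 23 prophase genes were higher at E14.5, and with a minimum of 20 CPM 23 of 28 were. No paired analysis was possible because each group is 1 library. The 18 germ cells at E10.5 limit what their counts of 0 can show, and differences between single libraries include any difference between preparations.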
